A study of Mus musculus with 6 samples.

Results

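Neuregulins and ErbB receptors were examined in RNA of the pre-limbic cortex (PLc), which belongs to the medial prefrontal cortex, of mice given sub-chronic ketamine or saline. The 7 members were the rows of the deposited table with the symbols Nrg1, Nrg2, Nrg3, Erbb2, Erbb3, Erbb4 and Egfr, out of 37620 rows in all. Each symbol matched 1 row. Mice of both groups are labelled as C57Bl/6 and 9 weeks old, with no transgene or virus named, and the study's methods describe its mice as male. The ketamine group (mice 3, 5 and 9) received 5 daily i.p. injections of 30 mg/kg, and the saline group (mice 1, 6 and 10) received vehicle on the same schedule. The PLc was dissected 2 days after the last injection and gave 1 library per mouse. The comparison asked which transcripts of the PLc differ after repeated exposure to ketamine, an antagonist of the NMDA receptor.

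Neuregulins are growth factors, most of them made as membrane-bound precursors, that bind ErbB3 and ErbB4 through an EGF-like domain. The bound receptor pairs with another ErbB receptor, often ErbB2, which has no known ligand of its own. EGFR, the founding member of the receptor family, binds EGF, TGF-alpha and related ligands rather than neuregulins. In cortex, ErbB4 is known as a receptor of GABAergic interneurons, including fast-spiking parvalbumin cells, and ErbB3 as a receptor of the oligodendrocyte lineage. NRG1 and ERBB4 have long been studied as candidate genes of schizophrenia, the disorder that the ketamine regime is meant to model.

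The EGF-like domain is what the neuregulins share and what the receptors bind, so its coding bases are shown for the best studied neuregulin, Nrg1, and for the most abundant one here, Nrg3. They are given 5′ to 3′ on the coding strand, and capitals mark the 6 cysteine codons that define the fold.
Nrg1: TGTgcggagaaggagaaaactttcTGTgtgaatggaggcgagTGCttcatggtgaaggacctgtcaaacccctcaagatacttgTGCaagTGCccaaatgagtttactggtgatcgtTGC
Nrg3: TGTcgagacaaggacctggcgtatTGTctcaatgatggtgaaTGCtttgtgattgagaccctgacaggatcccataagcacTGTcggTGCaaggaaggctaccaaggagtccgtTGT
The Nrg1 stretch has 120 bases in 2 coding exons on the mm9 minus strand of chromosome 8, between 32948170 and 32959870. The Nrg3 stretch has 117 bases in 2 coding exons on the minus strand of chromosome 14, between 39481549 and 39825342. The domain was found in 3 of 3 annotated coding transcripts of Nrg1 and in 4 of 4 of Nrg3.

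Reads per library, recovered from the deposited normalized counts, ranged from 26273436 to 32643726. Markers of cortical excitatory neurons were present in every library, but several libraries stood apart. Each was given a score, the mean log2 value of a marker list relative to the saline mean. For 9 genes of striatal medium spiny neurons, ketamine mouse 3 scored 3.27, mouse 5 scored 2.26 and mouse 9 scored -0.38. For 4 genes of olfactory bulb projection neurons the ketamine scores were 3.19, 2.59 and 5.97 in the same order, and no saline mouse exceeded 0.36. Saline mouse 10 had a score of 1.87 for 9 genes of mature oligodendrocytes, against -0.77 and -1.10 in saline mice 1 and 6. None of the genes of these lists was at 0 in any library. In bulk tissue, fewer cells of a type and less RNA per cell cannot be told apart.

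**Figure D1:**
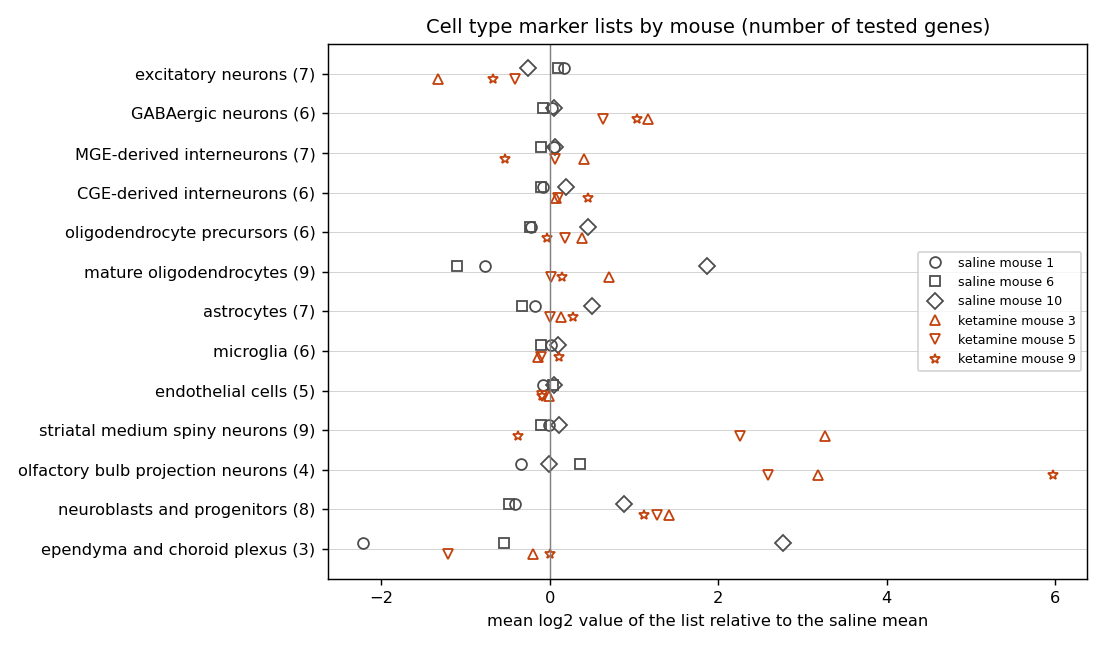
Scores of 13 marker lists in each mouse, as the mean log2 value of the list relative to the saline mean (x axis), with the number of tested genes in parentheses. Each symbol is a mouse, grey for saline and orange for ketamine. Ketamine mice 3 and 5 lie apart for striatal genes, and saline mouse 10 for mature oligodendrocyte genes. All ketamine mice lie apart for olfactory bulb genes, with mouse 9 the highest. For ependyma and choroid plexus genes, saline mice 1 and 10 lie at -2.22 and 2.77.

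Levels were compared between genes as normalized counts per kb of merged exons, with the lengths of GENCODE M1. Nrg3 was the most abundant member in saline mice, at 367 ± 78.9 normalized counts per kb, followed by Erbb4 at 187 ± 31.4 (SD, n = 3 each). These levels stood at percentiles 71.3 and 54.6 of the 16093 tested genes with a length. Erbb3 had 57.1 ± 44.0, Nrg2 49.9 ± 4.80, Nrg1 43.4 ± 10.6 and Egfr 43.2 ± 3.87 normalized counts per kb in the same 3 mice. Neighbours among these last 4 genes overlapped between saline mice, so their order was not resolved. Erbb2, the shared partner receptor, was the lowest, at 13.0 ± 1.37 normalized counts per kb (SD, n = 3), and was below Egfr in 6 of 6 mice by a factor of at least 1.55. Erbb4 was above Erbb3 in 6 of 6 mice, and Nrg3 was above Erbb4 in 5 of 6, the exception being ketamine mouse 3. The annotation behind the authors' counts is not named, so levels per kb would shift if their gene models were longer or shorter.

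All 7 members passed the filter, which asked for 10 or more normalized counts on average. Nrg2 and Erbb2 had non-overlapping groups with higher values after ketamine, by 0.50 and 0.41 on the log2 scale. Nrg3 had a log2 fold change of -0.49 with overlapping groups, and Nrg1, Erbb3, Erbb4 and Egfr differed by less than their spread between mice. No member passed the test, with an adjusted p of at least 0.828 for each (limma, two-sided, Benjamini-Hochberg over 16127 genes). limma called 0 of the 16127 genes (0%) at an adjusted p under 0.05, and its unadjusted p was under 0.05 for 937 (5.81%) and for 1 of the 7 members, Nrg2. On the recovered reads, edgeR called 0 genes (0%), with 1007 at an unadjusted p under 0.05. DESeq2, the package that the study used, called 182 genes (1.13%) and 0 members, with 1 member at an unadjusted p under 0.05. Among all genes tested, groups did not overlap for 5.69% with higher values after ketamine and for 4.66% with lower ones, beside 2 and 0 of the 7 members. The median log2 fold change was 0.06 over the 7 members, of which 5 were above 0, and -0.01 over all genes tested. With 3 mice against 3, an exact permutation test cannot give a p under 0.1.

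**Figure D2:**
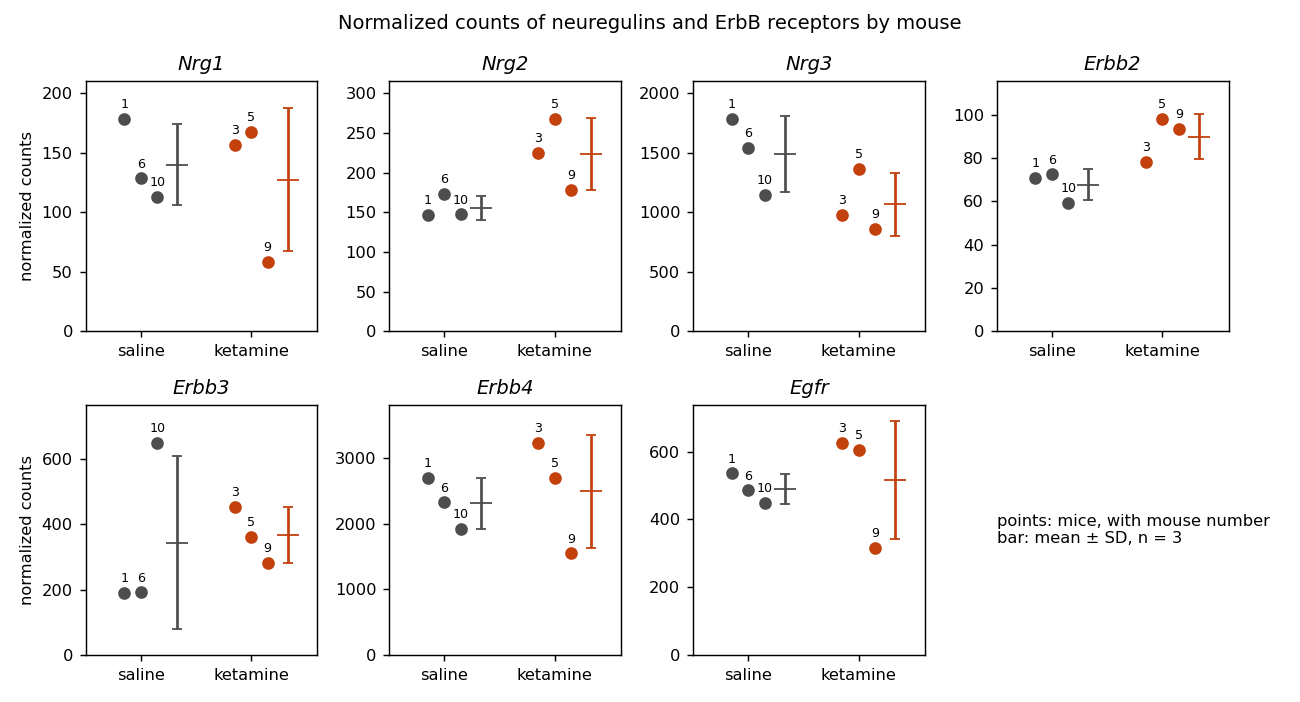
Normalized counts (y axis, from 0) of the 7 members in each mouse, with the mouse number beside each point and bars for the mean ± SD (n = 3). The groups are separate for Nrg2 and Erbb2, and ketamine mouse 9 is the lowest mouse for Nrg1, Nrg3, Erbb4 and Egfr.

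Nrg2 (ENSMUSG00000060275), a neuregulin made by neurons, occupies bases 36177333 to 36357034 of chromosome 18 in mm9, minus strand, and overlaps no other annotated gene. Its normalized counts were 147, 173 and 147 for saline mice 1, 6 and 10, and 225, 267 and 178 for ketamine mice 3, 5 and 9. The ketamine mice were all higher, with mouse 9 close to saline mouse 6. Its log2 fold change was 0.50 (standard error 0.202, 95% interval 0.03 to 0.98, unadjusted p = 0.0403, adjusted p = 0.828 by limma), and the exact permutation p was 0.1. DESeq2 gave 0.53 with an adjusted p of 0.612, and edgeR 0.54 with an adjusted p of 0.749, and over all alternatives the adjusted p was at least 0.295. Without ketamine mice 3 and 5, the difference was 0.20. Mice 3 and 5, with the most Nrg2, were also those with high striatal scores, and the part of striatal tissue in the difference was not tested.

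Nrg3 (ENSMUSG00000041014), a neuregulin largely confined to the nervous system that binds ErbB4, lies on the minus strand of chromosome 14 from 39182138 to 40286376. Its normalized counts were 1782, 1540.3 and 1148 for saline mice 1, 6 and 10, and 974, 1366 and 857 for ketamine mice 3, 5 and 9. Saline mouse 10 lay below ketamine mouse 5, so the groups overlapped. The log2 fold change was -0.49 (standard error 0.231, 95% interval -1.03 to 0.06, unadjusted p = 0.0715, adjusted p = 0.916 by limma), with an exact permutation p of 0.2. Leaving out 1 mouse at a time gave values from -0.68 to -0.35. Ketamine mice 3, 5 and 9 scored -1.32, -0.41 and -0.68 for 7 genes of excitatory neurons, beside 0.17, 0.10 and -0.26 for saline mice 1, 6 and 10. All 7 of these genes had a fold change below 0. Summed over the list, saline libraries held 145200 to 192000 normalized counts and ketamine libraries 91460 to 153100. The part of these cells in the Nrg3 values was not tested.

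Nrg1 (ENSMUSG00000062991), the best studied neuregulin and a signal for interneurons and myelinating glia, is annotated on the minus strand of chromosome 8 from 32928500 to 33119581. Its exons share 100 bases with Gm17443, a non-coding gene on the other strand that averaged 5.81 normalized counts. Normalized counts of Nrg1 were 178, 128 and 113 for saline mice 1, 6 and 10, and 157, 167 and 58.0 for ketamine mice 3, 5 and 9. A single mouse set the direction, since ketamine mice 3 and 5 lay within the saline range and mouse 9 far below it. Its log2 fold change was -0.25 (standard error 0.424, 95% interval -1.25 to 0.74, adjusted p = 0.999 by limma), and it turned to 0.24 without ketamine mouse 9 (limma, adjusted p = 0.764, with 0.164 to 1 over all alternatives).

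Erbb4 (ENSMUSG00000062209), the neuregulin receptor of cortical interneurons, spans chromosome 1 from 68078760 to 69154633 on the minus strand. Its normalized counts were 2697, 2329 and 1923 for saline mice 1, 6 and 10, and 3236, 2706 and 1549 for ketamine mice 3, 5 and 9. The highest and the lowest mouse were both ketamine mice. The log2 fold change was 0.06 (standard error 0.282, 95% interval -0.61 to 0.72, adjusted p = 0.999 by limma), with an exact permutation p of 0.9. The sign of this value depended on which mice entered, from -0.16 without ketamine mouse 3 to 0.37 without ketamine mouse 9.

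Lists of interneuron markers did not all follow Erbb4. Ketamine mice 3, 5 and 9 scored 1.16, 0.63 and 1.03 for 6 genes of GABAergic neurons, and saline scores lay between -0.08 and 0.05. All 6 of these genes had a fold change above 0. Summed over the list, saline libraries held 25990 to 30350 normalized counts and ketamine libraries 35300 to 53790. For 7 genes of interneurons derived from the medial ganglionic eminence (MGE), among them Pvalb and Sst, ketamine mice 3, 5 and 9 scored 0.40, 0.06 and -0.54. Of these 7 genes 2 had a fold change above 0. Tac1, which striatal medium spiny neurons also express, had normalized counts of 342, 377 and 297 for saline mice 1, 6 and 10, and of 3260 (mouse 3), 1672 (mouse 5) and 644 (mouse 9) after ketamine. Pvalb ran the other way, at 1105, 893 and 2261 in the saline libraries and 535, 516 and 670 in the ketamine ones. The list therefore did not move as a unit. Their sums were 10300 to 11890 normalized counts in saline libraries and 7648 to 12240 in ketamine libraries. Relative to the saline mean, log2 Erbb4 was 0.50, 0.24 and -0.57 in the same ketamine mice. In saline mice 1, 6 and 10 it was 0.23, 0.02 and -0.25, where the MGE score was 0.05, -0.11 and 0.06. For 6 genes of interneurons from the caudal ganglionic eminence, of which 2 had a fold change above 0, ketamine mice 3, 5 and 9 scored 0.07, 0.10 and 0.45. This list did not move as a unit in mouse 9 either. Calb2 was at 7274 normalized counts there, against 350, 388 and 646 for saline mice 1, 6 and 10. Calb2 and Htr3a were highest in mouse 9 of all libraries, Prox1 and Npas1 lowest, and Vip and Adarb2 in between. The part of interneurons in the Erbb4 values was not tested.

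Erbb2 (ENSMUSG00000062312), the partner receptor, lies on the plus strand of chromosome 11 from 98273784 to 98299030. It shares 9 exon bases with 1810046J19Rik on the other strand, a gene with a mean of 1316 normalized counts. Its normalized counts were 70.9, 72.4 and 59.3 for saline mice 1, 6 and 10, and 78.3, 97.8 and 93.4 for ketamine mice 3, 5 and 9. The groups did not overlap, with ketamine mouse 3 close to saline mouse 6. Its log2 fold change was 0.41 (standard error 0.208, 95% interval -0.08 to 0.90, unadjusted p = 0.0912, adjusted p = 0.953 by limma), and the exact permutation p was 0.1. Leaving out 1 mouse at a time gave values from 0.32 to 0.50, and it was 0.47 without ketamine mice 3 and 5. The scores for olfactory bulb genes (3.19, 2.59 and 5.97 for mice 3, 5 and 9), GABAergic genes (1.16, 0.63 and 1.03) and 8 neuroblast and progenitor genes (1.42, 1.27 and 1.12) were also above those of every saline mouse. All genes of these 3 lists had a fold change above 0, and the part of such cells in the Erbb2 values was not tested. Summed over the progenitor list, saline libraries held 1879 to 2122 normalized counts and ketamine libraries 3233 to 4030. For the 4 olfactory bulb genes these sums were 162 to 220 and 1126 to 8121. Erbb2 rested on 54 to 104 recovered reads per library, and counting alone gives an SD of 13.6% at the fewest reads.

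Erbb3 (ENSMUSG00000018166), which binds neuregulins and signals mainly through its partners, lies on the minus strand of chromosome 10 from 128004579 to 128026708. Its normalized counts were 191, 191 and 649 for saline mice 1, 6 and 10, and 454, 362 and 283 for ketamine mice 3, 5 and 9. Saline mouse 10 was the highest of all mice and the other saline mice the lowest. The log2 fold change was 0.32 (standard error 0.479, 95% interval -0.80 to 1.45, adjusted p = 0.999 by limma) with all mice, and 0.91 without saline mouse 10 (limma, unadjusted p = 0.00743, adjusted p = 0.277, with 0.277 to 1 over all alternatives). It was 0.030 without saline mouse 1 and 0.031 without saline mouse 6, and with all mice DESeq2 gave 0.095 and edgeR 0.10. The score of 9 genes of mature oligodendrocytes was also highest in saline mouse 10, at 1.87, and lowest in saline mice 1 and 6. It was 0.70, 0.02 and 0.15 in ketamine mice 3, 5 and 9. Summed over the list, saline libraries held 44300 to 382100 normalized counts and ketamine libraries 106200 to 162900. All 9 genes had a fold change above 0. For 6 genes of oligodendrocyte precursors, saline mice 1, 6 and 10 scored -0.22, -0.24 and 0.46. Ketamine mice 3, 5 and 9 scored 0.39, 0.18 and -0.04 for these precursor genes, of which 4 had a fold change above 0. Sums of the precursor genes were 5877 to 10910 normalized counts in saline libraries and 7008 to 9476 in ketamine libraries. The part of cells of this lineage in the Erbb3 values was not tested.

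Egfr (ENSMUSG00000020122), expressed in glia and in progenitor cells of the forebrain, lies on the plus strand of chromosome 11 from 16652206 to 16818161. Its normalized counts were 535, 485 and 448 for saline mice 1, 6 and 10, and 625, 606 and 315 for ketamine mice 3, 5 and 9. Ketamine mice 3 and 5 were above every saline mouse and mouse 9 below every one. The log2 fold change was 0.01 (standard error 0.275, 95% interval -0.63 to 0.66, adjusted p = 0.999 by limma), and it was 0.33 without ketamine mouse 9 (limma, unadjusted p = 0.0355, adjusted p = 0.456, with 0.168 to 1 over all alternatives).

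**Figure D3:**
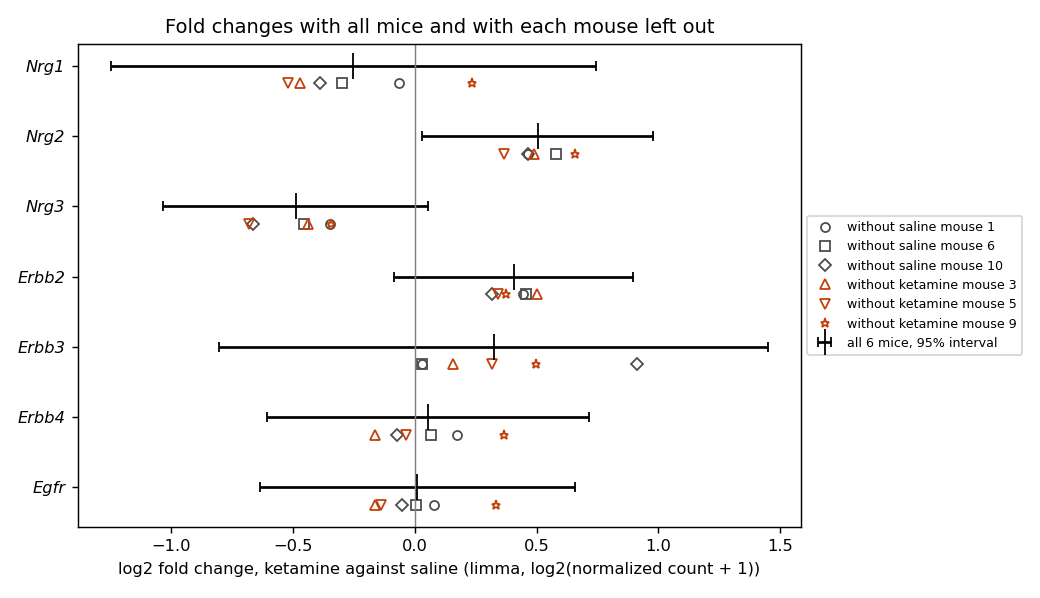
Log2 fold changes of ketamine against saline (x axis) by limma for the 7 members, with 95% intervals for all 6 mice in black and open symbols for fits without 1 mouse. Nrg2 and Erbb2 stayed above 0 and Nrg3 below 0 with each mouse left out, while Nrg1, Erbb4 and Egfr took both signs.

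Ketamine mouse 9 was the lowest library for 4 of the 7 members, namely Nrg1, Nrg3, Erbb4 and Egfr. It was the lowest for 29.1% of all genes tested, and for 69.8% of the 1605 genes with at least 8 kb of merged exons, among them Erbb4 (12.4 kb) and Egfr (11.3 kb). Relative to the saline mean, the median gene of this length class was -0.46 in mouse 9 on the log2 scale, beside -0.57 for Erbb4 and -0.63 for Egfr. The median of the 3584 genes under 2 kb was 0.28 in mouse 9, so the class medians lay further apart there than in any other library. Mouse 9 also had the highest olfactory bulb score, at 5.97, and the part of such cells in this pattern was not tested. In the other libraries the medians of the longest class lay between -0.09 and 0.16. When values were centred within length classes in each library, a step chosen after seeing the data, the log2 fold change was 0.13 for Erbb4 and 0.09 for Egfr, and for Nrg2 and Erbb2 it was 0.50 and 0.44. The adjusted p-values of these 4 genes by limma were then between 0.724 and 0.974. For Nrg1, Nrg3 and Erbb3 the centred log2 fold changes were -0.26, -0.46 and 0.36. The unadjusted p by limma was then 0.0496 for Nrg3 (adjusted p = 0.716) and 0.0538 for Nrg2. Before centring, Nrg1 was at -1.23 and Nrg3 at -0.77 in mouse 9, relative to the saline mean. By their annotated exons of 3.22 and 4.06 kb they fall in classes with medians of 0.09 and -0.16 there, and these classes would change if the counted transcripts were longer. Beyond this centring, the part of transcript length in the values of the 7 members was not tested.

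**Figure D4:**
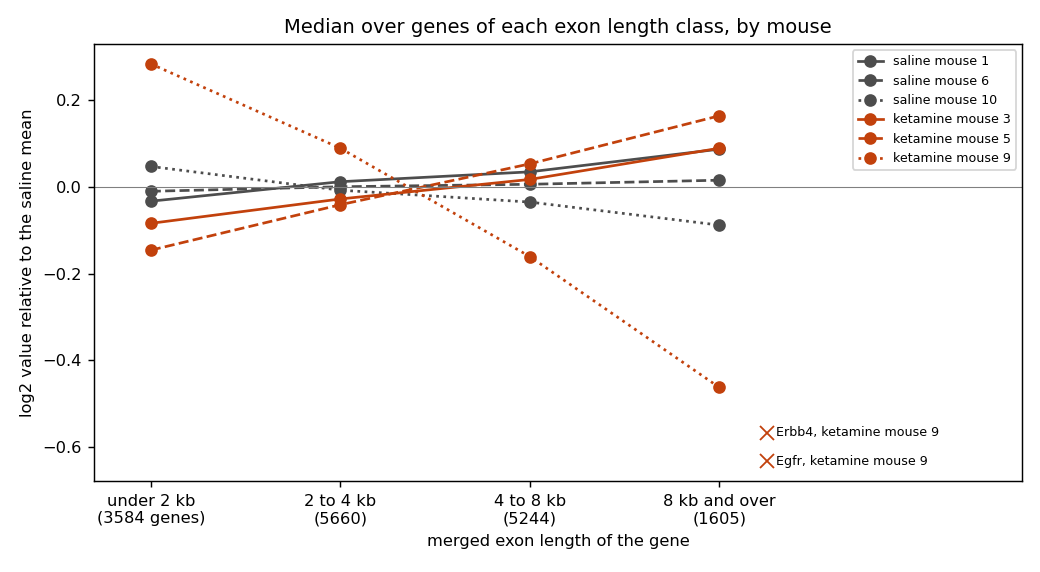
Median log2 value relative to the saline mean (y axis) over tested genes in 4 classes of merged exon length (x axis), with a line for each mouse, grey for saline and orange for ketamine. The line of ketamine mouse 9 runs from 0.28 down to -0.46, and crosses mark Erbb4 and Egfr in that mouse.

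Within a library, the mix of ligands can be described without a scaling between libraries. Of the summed level per kb of the 3 neuregulins, Nrg3 made up 77.4% to 81.1% in saline libraries and 66.5% to 73.8% in ketamine libraries. Nrg2 made up 8.69% to 12.9% of this sum in saline libraries and at least 18.1% in ketamine libraries. The ranges of both shares were separate between the groups, and the share of Nrg1 overlapped, at 8.40% to 10.2% and 6.30% to 13.5%. The shares of a library add up to a fixed total, so they are not independent, and the counts of Nrg3 itself overlapped between the groups. Such shares were not computed for other genes, so no share over all genes stands beside them. They come from the counts above and are given as a description. Among the 4 receptors, Erbb4 made up 49.5% to 70.2% in saline libraries and 57.5% to 64.2% in ketamine libraries. Erbb3 ranged most widely in saline mice, from 10.2% to 34.3%, against 17.1% to 21.6% in ketamine mice.

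The likeness of 2 genes was measured as the root mean square distance between their log2 values over the 6 mice, each centred on its own mean. The closest pair among the members was Erbb4 and Egfr, at 0.0952, with 25 of the genes tested closer to Erbb4 than Egfr was. Both genes have long transcripts and share the low value in mouse 9. Nrg2 and Erbb2 followed at 0.208, and Nrg3 and Erbb3 were the most unlike pair, at 0.898. Over all genes tested, the nearest to Nrg1 were Zfp109, Ash1l and Alkbh8 (0.0426 to 0.0685), and the nearest to Nrg2 were BC055324, Cmah and Rgl3 (0.0597 to 0.110). Nrg3 was nearest to Pip5k1c, Megf9 and Apba2 (0.0299 to 0.0481). Erbb2 was nearest to Rasa2, Igsf21 and Thbs1 (0.0601 to 0.0621), and Erbb3 to Snx33, Phldb1 and Rffl (0.0998 to 0.117). The genes nearest to Erbb4 were Grid1, 9330182L06Rik and Unc5d (0.0335 to 0.0505), and those near Egfr included Trp53bp1 and Bptf (0.0390 and 0.0475). These distances are a description, over 6 mice.

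Other genes of the ErbB pathway were taken from 6 lists. Of 83 listed genes, 80 were tested, of which 37 had a fold change above 0 and 43 below. Their median log2 fold change was -0.01, as for all genes tested. limma called 0 of them in either direction, with 3 at an unadjusted p under 0.05, and edgeR and DESeq2 called 0 as well, with 4 and 3. Groups did not overlap for 9 genes that were higher (11.3%, beside 5.69% of all genes) and 3 that were lower (3.75%, beside 4.66%).

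Of 8 other ligands of the EGF family 5 were tested, all 5 with a fold change above 0, and their median was 0.61 on the log2 scale. The median gene was Nrg4, which DESeq2 put at 0.35 and edgeR at 0.36. Beside these ligands, scores of olfactory bulb, GABAergic, and neuroblast and progenitor genes were higher in the 3 ketamine libraries than in any saline library, and the part of such cells was not tested. Egf, which encodes the founding ligand of EGFR, had normalized counts of 41.2, 31.9 and 48.3 for saline mice 1, 6 and 10, and of 76.4, 56.5 and 77.1 for ketamine mice 3, 5 and 9. All ketamine mice were higher (log2 fold change 0.78, standard error 0.265, limma, unadjusted p = 0.0208 and adjusted p = 0.717). Tgfa, another EGFR ligand, had normalized counts of 588, 498 and 1099 for saline mice 1, 6 and 10, and of 1682, 1064 and 719 for ketamine mice 3, 5 and 9. Its groups overlapped, with a log2 fold change of 0.67 (adjusted p = 0.999 by limma). Striatal scores were -0.01, -0.10 and 0.11 for saline mice 1, 6 and 10. They were 3.27, 2.26 and -0.38 for ketamine mice 3, 5 and 9, and the part of striatal tissue in the Tgfa values was not tested. Hbegf, which encodes a ligand of both EGFR and ErbB4, had a log2 fold change of 0.28 with overlapping groups. Nrg4 and Btc, outside the naming rule and added with their values known, had 0.61 and 0.36 at means of 21.9 and 11.6 normalized counts, and the groups were separate for Btc alone of this pair. Areg, Ereg and Epgn were too low to be tested, at means of 3.13, 0 and 2.23 normalized counts. Ereg had no read in any library, which allows up to 3 reads per library by counting error alone.

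Genes for the shedding and processing of neuregulins, 15 of 15 tested, had a median of -0.05, with 6 above 0 and 9 below. Aph1b, a subunit of gamma-secretase, was higher in every ketamine mouse, at 878 to 1022 against 801 to 861 normalized counts in saline mice (log2 fold change 0.21). Adam19 and Adam10, which encode metalloproteases that cleave membrane proteins, had -0.35 and -0.20 with overlapping groups. Negative regulators of ErbB receptors, 12 of 12 tested, had a median of -0.03, with 4 above 0 and 8 below. Those with the smallest p were Cblb, a ubiquitin ligase, at -0.33, and the transmembrane regulators Lrig3 and Lrig1 at 0.63 and 0.39, all with overlapping groups.

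Adaptors and genes of the PI3K and Akt branch, 19 of 19 tested, had a median of -0.11, with 8 above 0 and 11 below. Grb7, an adaptor that binds ErbB receptors and whose gene lies near Erbb2, had normalized counts of 20.1, 24.1 and 18.7 for saline mice 1, 6 and 10. The ketamine mice 3, 5 and 9 had 53.8, 33.9 and 29.0, all higher (log2 fold change 0.82, standard error 0.328, limma, unadjusted p = 0.0399 and adjusted p = 0.827). Nck2, another adaptor, had 1008 to 1019 normalized counts in saline libraries and 628 to 943 in ketamine libraries, with a log2 fold change of -0.39 (adjusted p = 0.865 by limma). Pik3r2, a regulatory subunit of PI3K, had -0.28 with overlapping groups.

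Effectors of the Ras, ERK, PLC gamma, Src and STAT branches, 20 of 20 tested, had a median of 0.05, with 11 above 0 and 9 below. Stat5b, a transcription factor activated by ErbB4 and cytokine receptors, had normalized counts of 824, 844 and 634 for saline mice 1, 6 and 10, and of 1244, 957 and 1044 for ketamine mice 3, 5 and 9. All ketamine mice were higher (log2 fold change 0.50, standard error 0.171, limma, unadjusted p = 0.0217 and adjusted p = 0.725). Mapk3, the kinase ERK1, was higher in every ketamine mouse too, at 0.36 (adjusted p = 0.865 by limma), and Src, a tyrosine kinase, was lower in every one, at -0.21 (adjusted p = 0.999). Scaffold and nuclear partners of ErbB4, 9 of 9 tested, had a median of -0.19, with 3 above 0 and 6 below. Dlg4, which encodes the synaptic scaffold PSD-95, had -0.21 with overlapping groups. Wwox was lower and Yap1 higher in every ketamine mouse, at -0.23 and 0.20, and both encode proteins known to bind the ErbB4 intracellular domain.

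**Figure D5:**
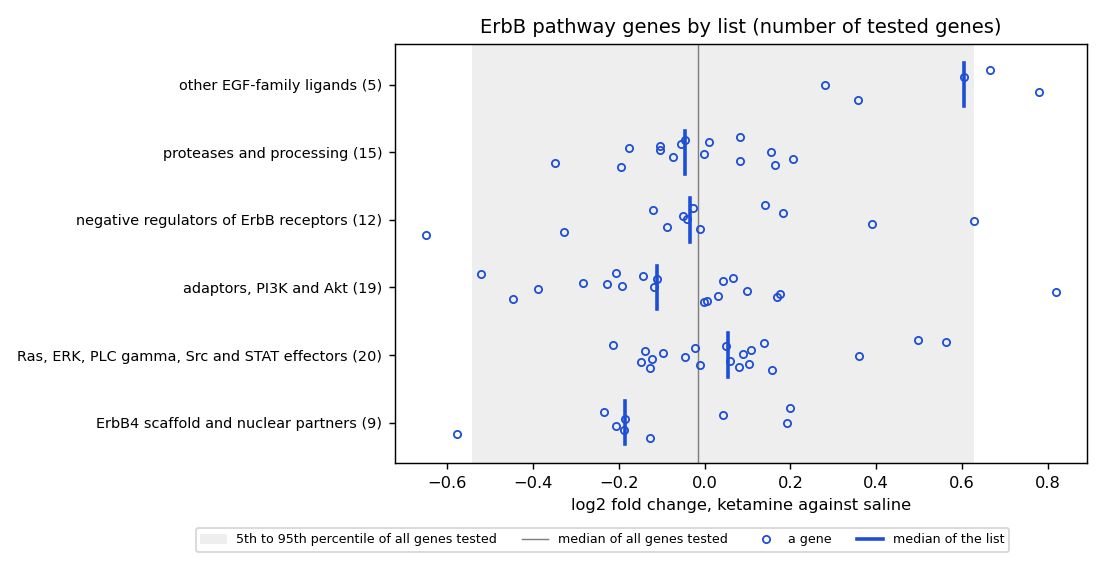
Log2 fold changes of ketamine against saline (x axis) for 80 tested ErbB pathway genes in 6 lists, with a bar for each list's median and shading from the 5th to the 95th percentile of all genes tested. The 5 EGF-family ligands lie above 0, and the medians of the other lists lie between -0.19 and 0.05.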

How the data were processed

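RNA of the PLc was sequenced as paired-end reads. Per the study's methods and the submitters' processing notes, the authors aligned reads to mm9 with TopHat2 2.0.11, counted them per gene with HTSeq and used DESeq2. The deposited signal is a normalized count with 2 decimals, made by dividing the reads of a library by its size factor. Which annotation, strandedness and filters were used is not given in the sources used here, so reads of opposite-strand neighbours cannot be told apart. Dividing by the value of 1 read gave whole reads for 100% of values in every library (within 0.0051), and 1 read was worth between 0.906 and 1.10 normalized counts. The labels give each sample its own number, taken as separate mice. No numbers are shared between groups.

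Log2(normalized count + 1) was fitted for 16127 genes by limma 3.58.1 (R 4.3.3; variance trend on), namely those with a mean of at least 10. P-values are two-sided, with Benjamini-Hochberg adjustment over all these genes and a threshold of 0.05. The added 1 pulls fold changes of low genes towards 0, and limma compares means of log2 values, so its fold changes can be smaller or larger than those of edgeR and DESeq2. Recovered reads were tested with edgeR 4.0.16 (quasi-likelihood) and DESeq2 1.42.0, which left 40 adjusted p-values undefined. The tests were checked on simulated data. A permutation test was exact and used the log2 values of a gene.

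Members, gene lists and marker lists were chosen with earlier results of these data known. Genes named are the members, the 3 genes of each pathway list with the smallest p, and the 3 genes nearest to each member, of which 1 is not reported here. Coordinates and exon lengths are those of GENCODE M1 on mm9, which held 37205 of the 37620 identifiers. Symbols came from the table for 20515 genes and from a table of gene names for 16730 more. All 83 pathway genes were matched, some under older symbols. Alternatives covered the pseudocount, the filter, the scaling, the test and the mice included.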

Additional observations from a re-analysis of the deposited data

How the results depend on the processing

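No member passed the threshold under any of the 17 alternatives, and of 118 refits of a member 108 kept the direction. Nrg2, Nrg3 and Erbb2 kept theirs in all. DESeq2 on recovered reads called 182 genes where limma called 0. With each mouse left out in turn, limma called between 0 and 1 genes, with 1 called without ketamine mouse 5 and 1 without ketamine mouse 9, and 0 members and 0 pathway genes. The direction of 4 members turned with the mice included, and the cause was not tested. With 1 mouse left out, Nrg1 ranged from -0.52 (ketamine mouse 5) to 0.24 (ketamine mouse 9), Erbb4 from -0.16 to 0.37 and Egfr from -0.16 to 0.33. Erbb3 was -0.022 without ketamine mice 3 and 5. Erbb4 was -0.16, -0.035 and -0.072 without ketamine mouse 3, ketamine mouse 5 and saline mouse 10, and -0.57 without ketamine mice 3 and 5. Egfr was -0.16, -0.14, -0.051 and -0.63 in the same 4 fits. With mice 3 and 5 left out, mouse 9 alone stood for ketamine and was assumed to vary like the saline mice. Recomputed size factors and upper-quartile scaling, added for this count after seeing the data, left 2 members higher and 0 lower in every ketamine mouse, and no scaling moved the median gene by more than 0.03. A filter of 100 normalized counts removed Erbb2. The depth limits Erbb2, Nrg1 and Nrg2 most, at 54 to 284 reads per library. No paired analysis was possible because the groups share no mouse numbers.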
